A study of Homo sapiens with 24 samples.

Results

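The SLC25 genes encode the carriers that move metabolites across the inner membrane of mitochondria. Members were every gene whose symbol is SLC25A followed only by digits, and this gave 48 of the 25168 genes in the count tables. The 24 RNA libraries came from 2 established human pancreatic ductal adenocarcinoma lines, BXPC3 and PANC1. In each line, cells received for 24 h a vehicle control, SR4 at 5 uM, lonidamine at 300 uM, or SR4 and lonidamine together, with 3 libraries in each of the 8 groups. The labels state no separate doses for the combination. All groups of a line shared the same low-glucose culture medium with serum. SR4 is a compound known by that code name as an uncoupler of mitochondria, and lonidamine is known as an inhibitor of pyruvate and lactate transport and of respiration. Whether the libraries of a group came from separate cultures is not stated, and a p-value here reflects only the spread among those libraries, which may be technical.

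SLC25 carriers share a fold made of repeated pairs of membrane helices and work mostly as exchangers, taking a solute in for each solute let out. They supply ADP and phosphate for ATP synthesis, pass reducing equivalents and citrate between mitochondria and cytosol, and bring in cofactors such as folate, coenzyme A and NAD. In tumour cells of the pancreas, the exchange of aspartate, glutamate, malate and citrate ties glutamine use in mitochondria to redox balance and lipid synthesis in the cytosol.

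Levels are counts-per-million values (CPM), scaled by TMM within each line. A change is a log2 ratio of groups with its standard error (SE), and a member was called where edgeR's quasi-likelihood test gave a Benjamini-Hochberg adjusted p under 0.05 over all genes tested. Of the 48 members, 38 passed the count filter in each line and 37 passed in both, while 9 passed in neither. SLC25A27, a relative of the uncoupling proteins, passed in BXPC3 alone, and SLC25A21, an oxodicarboxylate carrier, in PANC1 alone. A member near the filter could pass through its highest group, so the counts that follow describe the members tested, not the family. Fewer cells and less RNA per cell cannot be told apart in these bulk libraries.

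SLC25A5 had the highest level per length of the family in both lines. This gene (chromosome X, 119468400 to 119471319 on GRCh38) encodes the ADP/ATP translocase of dividing cells, and in vehicle it stood at 481 CPM per kilobase of gene in BXPC3 and 382 in PANC1. The next levels per length in BXPC3 were 46.6 for SLC25A24, an ATP-Mg/phosphate carrier, 38.3 for SLC25A39, the glutathione carrier, and 37.7 for SLC25A3, the phosphate carrier. In PANC1 they were 50.5 for SLC25A1, the citrate carrier, 47.7 for SLC25A3 and 26.3 for SLC25A13, an aspartate/glutamate carrier. All 48 members together held 0.2441% ± 0.000704 (SD, n = 3) of the counts of BXPC3 vehicle libraries and 0.241% ± 0.00199 (SD, n = 3) in PANC1. The share was lower in each treated group. In BXPC3 it was 0.2154% with SR4, 0.2129% with lonidamine and 0.2206% with the combination, and in PANC1 it was 0.2204%, 0.2249% and 0.2293%. SLC25A5 weighs heavily in this share, so the share does not describe the family as a whole. In the same order, its mean went from 716 CPM with vehicle to 459, 505 and 501 in BXPC3. In PANC1 it went from 568 CPM to 549, 371 and 387. SLC25A6, the third somatic ADP/ATP translocase, was listed at 0 in all 24 libraries. It lies in the pseudoautosomal region shared by the X and Y chromosomes, and 21 of the 23 genes of that region in the tables, itself included, were at 0, so the 0 is no measure of its level.

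With SR4 in BXPC3, 27 of 38 members tested were called, 10 higher and 17 lower, which is 71.1% beside 67.2% of all genes tested (33.4% higher and 33.9% lower). Lonidamine in BXPC3 gave 13 higher and 11 lower, 63.2% beside a background of 67.5% (34.8% and 32.7%). The combination gave 16 and 16, 84.2% beside 79.2% (39.7% and 39.5%). In PANC1, SR4 gave 9 higher and 19 lower of 38, 73.7% beside 71.7% (35% and 36.7%). Lonidamine in PANC1 gave 10 and 17, 71.1% beside 69.2% (35% and 34.2%), and the combination 16 and 18, 89.5% beside 81.1% (40.1% and 40.9%). The share of members called was thus near that of all genes in each comparison. The median log2 change of the members was -0.15, 0.05 and -0.03 in BXPC3 for SR4, lonidamine and both together, and -0.17, -0.08 and -0.10 in PANC1, beside medians over all genes between -0.02 and 0.03. The 3 comparisons of a line share its 3 vehicle libraries.

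**Figure D1:**
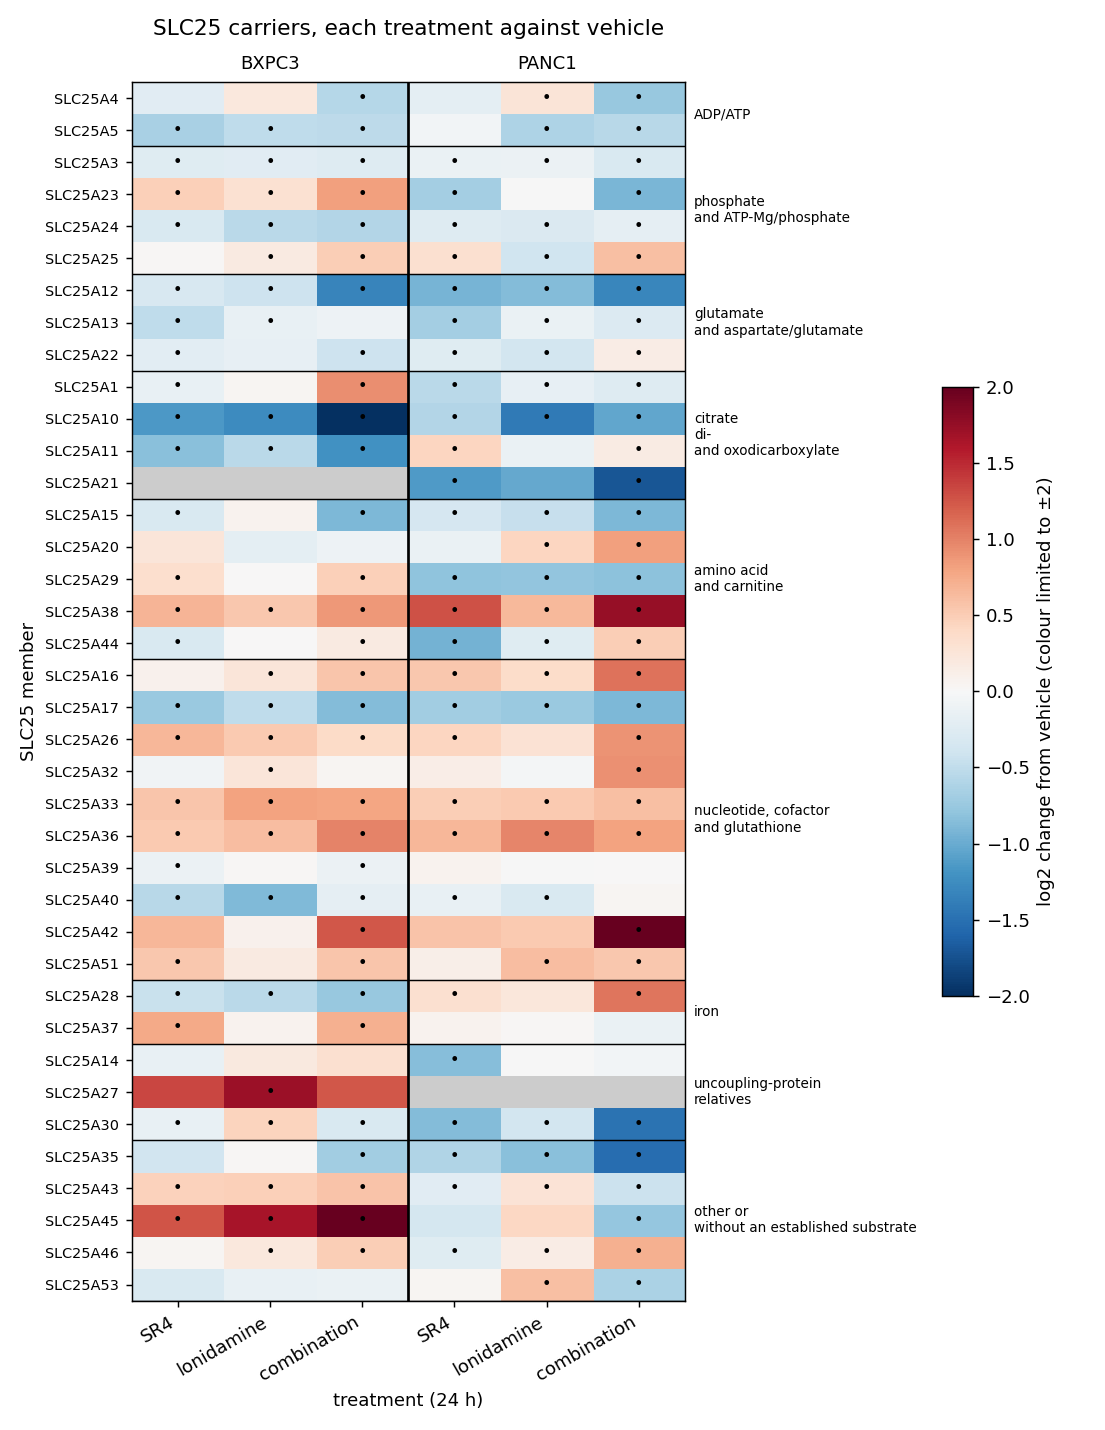
Colour gives the log2 change from vehicle for each SLC25 member tested and reported (rows, grouped by role) under each treatment (columns) in BXPC3 and PANC1, limited to ±2. A dot marks an edgeR adjusted p under 0.05 and grey a member not tested in that line. The rows of SLC25A33, SLC25A36 and SLC25A38 are red across both lines, that of SLC25A10 is blue, and those of SLC25A11, SLC25A23 and SLC25A28 change colour between the lines.

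The ADP/ATP translocases export ATP from mitochondria in exchange for ADP. SLC25A5 in BXPC3 stood at 744, 705 and 698 CPM in the vehicle libraries. It fell to 462, 456 and 458 with SR4, to 502, 514 and 499 with lonidamine and to 512, 492 and 499 with the combination, and no treated library reached a vehicle library. The log2 changes were -0.64 ± 0.032, -0.50 ± 0.032 and -0.52 ± 0.033, with edgeR adjusted p-values of 1.29e-15, 2.01e-13 and 6.15e-14. In PANC1 the vehicle libraries held 587, 557 and 561 CPM and the SR4 libraries 536, 605 and 507, which overlap. Lonidamine lowered the PANC1 level to 376, 364 and 372 and the combination to 397, 381 and 383, by -0.62 ± 0.045 and -0.56 ± 0.045 log2. The change of SLC25A5 with SR4 differed between the lines, by 0.59 ± 0.059 log2 in a fit of all 24 libraries (PANC1 minus BXPC3, edgeR adjusted p = 8.12e-11).

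SLC25A4, the translocase typical of heart and muscle (chromosome 4, 185143241 to 185150382), was much lower than SLC25A5 per length, at 4.25 and 5.47 CPM per kilobase in BXPC3 and PANC1 vehicle. Its BXPC3 libraries held 22.9, 19.9 and 18.9 CPM with vehicle and 12.6, 14.5 and 14.5 with the combination. Its PANC1 libraries held 25.8, 28 and 25.6 CPM with vehicle, 32.5, 31.6 and 30.7 with lonidamine and 13.7, 17.7 and 16 with the combination. The combination libraries lay below every vehicle library in both lines, with log2 changes of -0.57 ± 0.11 and -0.75 ± 0.096 (edgeR adjusted p = 4.09e-05 and 4.9e-08). Lonidamine alone went the other way in PANC1, by 0.25 ± 0.085 log2 (edgeR adjusted p = 0.00967), and gave 0.21 ± 0.099 in BXPC3 without passing the test (edgeR adjusted p = 0.0628). SR4 gave -0.23 ± 0.10 and -0.19 ± 0.091, neither of them called. SLC25A31, the translocase of sperm, had 4 counts over the BXPC3 libraries and 0 over the PANC1 libraries. These paralogs are close in sequence and SLC25A5 has processed copies in the genome, so the split of reads among them is uncertain.

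The phosphate carrier SLC25A3 (chromosome 12, 98593591 to 98606379) brings in the phosphate that ATP synthase uses. It was lower in all treated groups, by small amounts. In BXPC3 it stood at 331, 335 and 339.9 CPM with vehicle, 274, 294 and 285 with SR4, 289, 286 and 288 with lonidamine and 273, 285 and 285 with the combination. In PANC1 the values were 422, 427 and 422, 369, 415 and 374, 390.3, 397 and 381 and 341, 340.2 and 354. Every treated library lay below every vehicle library of its line, and the log2 changes ran from -0.12 ± 0.039 with lonidamine in PANC1 to -0.30 ± 0.039 with the combination in PANC1 (edgeR adjusted p = 0.00654 and 9.2e-08).

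Its calcium-regulated relatives, which exchange ATP-Mg for phosphate and so set the adenine nucleotide pool of mitochondria, did not share a direction. SLC25A24 fell in all 6 comparisons, most with the combination in BXPC3, from 209, 209 and 223 to 149, 141 and 135 CPM (-0.59 ± 0.044 log2). SLC25A23 in BXPC3 rose from 25.8, 25.4 and 24.1 CPM with vehicle to 35.3, 35.2 and 34.3 with SR4, 31.7, 30.5 and 30.6 with lonidamine and 42.1, 46.7 and 44.3 with the combination. In PANC1 it fell from 19.8, 22.4 and 23.3 to 15.5, 12.7 and 12.5 with SR4 and 11.1, 12.4 and 11.3 with the combination. The 2 responses differed by -1.17 ± 0.12 log2 for SR4 and -1.77 ± 0.12 for the combination (edgeR adjusted p = 1.08e-10 and 4.61e-16). SLC25A25 rose with the combination in both lines, by 0.49 ± 0.066 and 0.60 ± 0.11 log2. With lonidamine it rose in BXPC3 (0.18) and fell in PANC1 (-0.41). The BXPC3 call for lonidamine was lost in 5 of 11 alternative analyses, among them DESeq2, and the PANC1 call without vehicle replicate 3 (edgeR adjusted p = 0.0726). SLC25A25 overlaps an antisense gene, SLC25A25-AS1, that held 2166 counts in BXPC3 and 231 in PANC1 against 4874 and 1723 for the carrier, and whether reads were counted by strand is not stated in the sources used here.

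The aspartate/glutamate carriers SLC25A12 and SLC25A13 export aspartate in exchange for glutamate and are part of the malate-aspartate shuttle. SLC25A12 (chromosome 2, 171784370 to 171999859) fell under every treatment. Its BXPC3 libraries held 29.4, 27.2 and 29.1 CPM with vehicle, 23.3, 21.1 and 24.1 with SR4, 19.8, 20.6 and 23.9 with lonidamine and 12.3, 10.7 and 11.2 with the combination. Its PANC1 libraries held 18.5, 20.3 and 22, 9.73, 12.2 and 10.02, 11.2, 11.9 and 10.3 and 8.32, 7.72 and 8.59. No treated library overlapped the vehicle libraries, and in BXPC3 the combination libraries also lay below all libraries of either treatment alone. The log2 changes, in the order SR4, lonidamine and combination, were -0.32 ± 0.084, -0.42 ± 0.085 and -1.32 ± 0.098 in BXPC3 and -0.92 ± 0.11, -0.87 ± 0.11 and -1.3 ± 0.12 in PANC1. The largest of these 6 edgeR adjusted p-values was 0.00148, for SR4 in BXPC3. The fall with SR4 was larger in PANC1, by -0.60 ± 0.14 log2 (edgeR adjusted p = 0.000331), whereas the combination changes differed by -0.01 ± 0.15 (edgeR adjusted p = 0.984).

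SLC25A13 (chromosome 7, 96120220 to 96322147), the form typical of liver, was the more abundant per length, at 19.6 against 5.55 CPM per kilobase for SLC25A12 in BXPC3 vehicle and 26.3 against 3.93 in PANC1. Of the 3 treated groups, SR4 had the lowest level in both lines. In BXPC3 it stood at 74.1, 69.9 and 72.6 CPM with vehicle, 49.8, 53.8 and 49.5 with SR4 and 71.7, 62 and 67.8 with the combination, and in PANC1 at 101, 91.6 and 99.3, 58.4, 62.1 and 60.8 and 79.98, 81.6 and 79. The SR4 libraries lay well below vehicle in both lines (-0.50 ± 0.057 and -0.69 ± 0.051 log2, edgeR adjusted p = 1.57e-08 and 1.94e-12), and the combination libraries lay above the SR4 libraries. Combination against SR4 gave 0.40 ± 0.059 log2 in BXPC3 and 0.41 ± 0.051 in PANC1 (edgeR adjusted p = 1.89e-06 and 8.16e-08). The falls with lonidamine alone, -0.14 and -0.13 log2, were small, and their calls were lost in 3 and 6 of 11 alternative analyses, including any that left out vehicle replicate 1 or 3 or lonidamine replicate 1 of the line, and lonidamine replicate 2 in PANC1 (edgeR adjusted p up to 0.0848 and 0.101).

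SLC25A22 (chromosome 11, 790475 to 798333) carries glutamate with a proton. It was higher in PANC1 than in BXPC3 with vehicle by 1.36 ± 0.063 log2 (edgeR adjusted p = 9.42e-22). In BXPC3 it went from 37.7, 33.2 and 35.2 CPM with vehicle to 27.4, 23.3 and 29.3 with the combination, a fall of 0.41 log2. In PANC1 it stood at 94.9, 101 and 97.4 with vehicle, 83.2, 88.6 and 77.9 with SR4, 81.9, 74.4 and 71.9 with lonidamine and 107, 108 and 110.4 with the combination. Each treatment alone lowered it in PANC1 (-0.23 ± 0.054 and -0.37 ± 0.054 log2), yet the combination libraries lay above all vehicle libraries (0.15 ± 0.052, edgeR adjusted p = 0.0107). That last call was lost without PANC1 vehicle replicate 1 (edgeR adjusted p = 0.0522), and the fall with SR4 in BXPC3 (-0.21) was lost on leaving out vehicle replicate 1, SR4 replicate 2 or the unnumbered SR4 replicate. Its close relative SLC25A18 was at 0 in all BXPC3 libraries and had 40 counts over the PANC1 libraries.

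The citrate carrier SLC25A1 (chromosome 22, 19175575 to 19178830) exports citrate for malate and thereby feeds the cytosol with the carbon of acetyl-CoA. In BXPC3 it held 59.1, 54.4 and 55.2 CPM with vehicle, 51.4, 49.6 and 51 with SR4, 64, 57.2 and 52.8 with lonidamine and 109, 106 and 109 with the combination. The combination libraries stood far above the other 9, a change of 0.94 ± 0.057 log2 from vehicle (edgeR adjusted p = 3.51e-14). In PANC1 the values were 100.4, 111 and 105 with vehicle, 68.6, 82.3 and 67.5 with SR4, 92.3, 96 and 95.3 with lonidamine and 84.6, 93.4 and 87.2 with the combination, so that every treated library lay below every vehicle library. SR4 lowered it there by 0.54 log2 and the combination by 0.26. The combination responses of the lines differed by -1.23 ± 0.087 log2 (edgeR adjusted p = 2.29e-15). The smaller falls with SR4 in BXPC3 (-0.15) and lonidamine in PANC1 (-0.16) lost their calls when BXPC3 vehicle replicate 1, SR4 replicate 2 or the unnumbered SR4 replicate, or PANC1 vehicle replicate 2 or lonidamine replicate 1, was left out (edgeR adjusted p up to 0.152 and 0.11).

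SLC25A10, the dicarboxylate carrier that exchanges malate or succinate for phosphate, had the largest fall of any tested member under each of the 3 treatments in BXPC3. It went from 29.3, 26.4 and 26.9 CPM with vehicle in BXPC3 to 12.3, 12 and 12.9 with SR4, 10.7, 12.3 and 11.7 with lonidamine and 5.93, 6.01 and 6.96 with the combination. In PANC1 it went from 53.9, 62.3 and 67.8 to 37.3, 44.5 and 41, 21.9, 22.2 and 24.5 and 27.5, 29.6 and 32.9. The order of the treated groups thus differed: the combination was lowest in BXPC3 (-2.13 ± 0.11 log2 from vehicle) and lonidamine alone was lowest in PANC1 (-1.42 ± 0.086). SLC25A11, which exchanges oxoglutarate for malate in the malate-aspartate shuttle, stood at 53.4, 53.1 and 51.6 CPM in BXPC3 vehicle and 53.1, 47.5 and 55.5 in PANC1 vehicle. SR4 took it to 29.3, 27.7 and 31.4 in BXPC3 and to 70.7, 74.6 and 66 in PANC1, so the libraries moved in opposite directions (-0.84 ± 0.074 and 0.43 ± 0.064 log2). The difference between the lines was 1.27 ± 0.10 log2 (edgeR adjusted p = 2.09e-13).

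The folate carrier SLC25A32 (chromosome 8, 103398635 to 103415189) lets reduced folates into mitochondria. Its BXPC3 libraries held 82, 75 and 83.4 CPM with vehicle, 76.9, 75 and 76.4 with SR4, 96, 97.3 and 90.9 with lonidamine and 81, 84.7 and 82.2 with the combination. Only the lonidamine libraries lay clear of vehicle in that line (0.24 ± 0.050 log2, edgeR adjusted p = 0.000118). In PANC1 the values were 60.3, 59.6 and 52.2 with vehicle, 62.3, 62.8 and 62.9 with SR4, 52, 57.5 and 57.9 with lonidamine and 108, 106 and 111 with the combination. The combination raised it by 0.91 ± 0.055 log2 there (edgeR adjusted p = 9.11e-15), while SR4 and lonidamine alone gave 0.13 ± 0.060 and -0.04 ± 0.059 and did not pass the test (edgeR adjusted p = 0.0609 and 0.573). The combination responses of the lines differed by 0.83 ± 0.076 log2 (edgeR adjusted p = 3.12e-12).

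**Figure D2:**
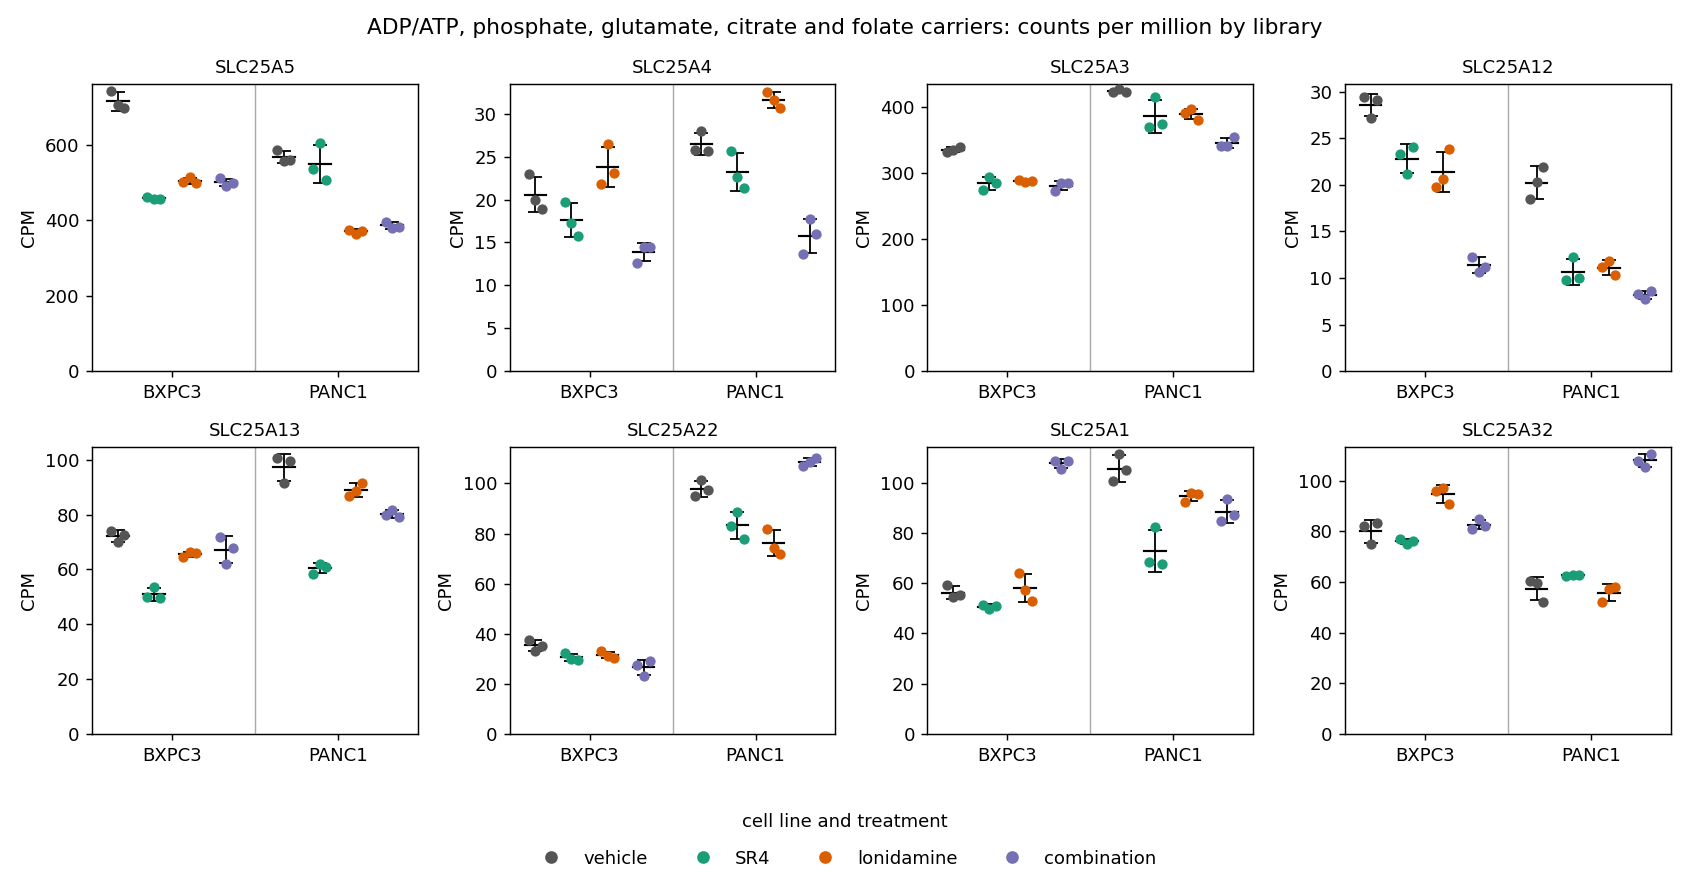
Each point is the CPM of 1 library for 8 carriers of ADP/ATP, phosphate, glutamate, citrate and folate, by line and treatment, with the mean and SD of 3 libraries as bars. All axes start at 0. SLC25A1 is high in the combination libraries of BXPC3 and SLC25A32 in those of PANC1, whereas SLC25A12 is lowest in the combination libraries of both.

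SLC25A33 and SLC25A36 carry pyrimidine nucleotides for the synthesis of mitochondrial nucleic acids, and SLC25A38 carries glycine for the first step of heme synthesis. These 3 members were called higher in all 6 comparisons with vehicle. The share of all genes called higher in all 6 was not counted, and the comparisons of a line share its vehicle libraries. SLC25A38 in PANC1 stood at 22.8, 21.3 and 18.6 CPM with vehicle, 50.7, 53.9 and 47.9 with SR4, 31.2, 32.9 and 34.2 with lonidamine and 71.2, 70.8 and 68.7 with the combination. In BXPC3 it went from 37.9, 33.6 and 33.7 to 54.7, 53.3 and 60.3, 52.7, 50.2 and 50.6 and 62, 69.3 and 60.7. The 4 groups of PANC1 did not overlap each other, and the combination change there (1.75 ± 0.071 log2) exceeded that in BXPC3 by 0.84 ± 0.10 (edgeR adjusted p = 4.75e-09). SLC25A36 rose from 74.1, 82.5 and 94.4 CPM with vehicle to 163, 166 and 169 with the combination in BXPC3. In PANC1 its highest group was lonidamine, at 189, 177 and 179 CPM against 94.3, 89.6 and 92.1 with vehicle. SLC25A33 rose by 0.56 ± 0.088, 0.81 ± 0.087 and 0.79 ± 0.088 log2 in BXPC3 and by 0.49 ± 0.076, 0.52 ± 0.074 and 0.60 ± 0.074 in PANC1, with the largest edgeR adjusted p at 3.85e-06.

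Promoter sequences are shown for these 3 carriers because each was called higher in all 6 comparisons. That of SLC25A3, which fell in every comparison, is the contrast. Each is the 250 bases before the RefSeq start on GRCh38.p14, plus strand, 5′ to 3′, with the E-box CACGTG in capitals. They lie at chr1:9539215-9539464 for SLC25A33, chr3:140941586-140941835 for SLC25A36, chr3:39383120-39383369 for SLC25A38 and chr12:98593436-98593685 for SLC25A3.
SLC25A33: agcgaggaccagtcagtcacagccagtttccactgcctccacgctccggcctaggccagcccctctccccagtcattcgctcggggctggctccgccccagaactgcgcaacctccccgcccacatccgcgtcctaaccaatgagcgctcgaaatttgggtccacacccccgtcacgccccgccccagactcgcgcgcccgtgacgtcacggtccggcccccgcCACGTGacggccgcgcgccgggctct
SLC25A36: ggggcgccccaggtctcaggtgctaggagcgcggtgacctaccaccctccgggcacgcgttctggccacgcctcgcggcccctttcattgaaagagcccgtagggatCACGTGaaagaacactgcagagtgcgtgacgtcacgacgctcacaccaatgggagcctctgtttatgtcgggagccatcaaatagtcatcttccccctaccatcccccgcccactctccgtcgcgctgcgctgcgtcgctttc
SLC25A38: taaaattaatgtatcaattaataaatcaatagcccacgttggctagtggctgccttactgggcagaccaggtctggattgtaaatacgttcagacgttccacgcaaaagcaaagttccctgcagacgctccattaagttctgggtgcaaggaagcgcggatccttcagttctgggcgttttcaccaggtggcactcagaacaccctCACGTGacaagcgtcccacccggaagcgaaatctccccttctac
SLC25A3: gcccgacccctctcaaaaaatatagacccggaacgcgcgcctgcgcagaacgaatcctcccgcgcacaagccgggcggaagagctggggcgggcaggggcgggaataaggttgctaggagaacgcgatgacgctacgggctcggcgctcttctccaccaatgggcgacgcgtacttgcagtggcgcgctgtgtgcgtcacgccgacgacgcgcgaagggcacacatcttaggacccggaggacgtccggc
The hexamer CACGTG, which reads the same on both strands, was present in the first 3 of these windows and absent from the last. Of the 40 members with a RefSeq promoter entry (250 bases before to 50 after the start), 9 held it, or 22.5%. Among the 10654 genes tested with an entry the share was 12.4%. Counted by entry in place of gene, 9 of 51 member promoters held it, or 17.6%, beside 7.26% of all 35116 promoters of that length. The other 6 members were SLC25A13, SLC25A22, SLC25A26, SLC25A31, SLC25A46 and SLC25A51, among which SLC25A31 was hardly read. SLC25A13 was called lower with SR4 and lonidamine in both lines and with the combination in PANC1. SLC25A22 was called lower with SR4 in both lines, lonidamine in PANC1 and the combination in BXPC3, and higher with the combination in PANC1. SLC25A46 was called lower with SR4 in PANC1 and higher with lonidamine and the combination in both lines. SLC25A26 and SLC25A51 had only calls higher than vehicle. TGATGNAA, the core of the C/EBP-ATF response element, was found on either strand in 1 member, SLC25A11 (2.5% beside 2.72% of genes tested). TGACNNNGC, the core of the antioxidant response element, was in 9 members (22.5% beside 19.5%), TCACNCCAC, a sterol response element, in 1 (2.5% beside 1.44%), and the NRF1 palindrome in 0 (beside 2.51%).

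**Figure D3:**
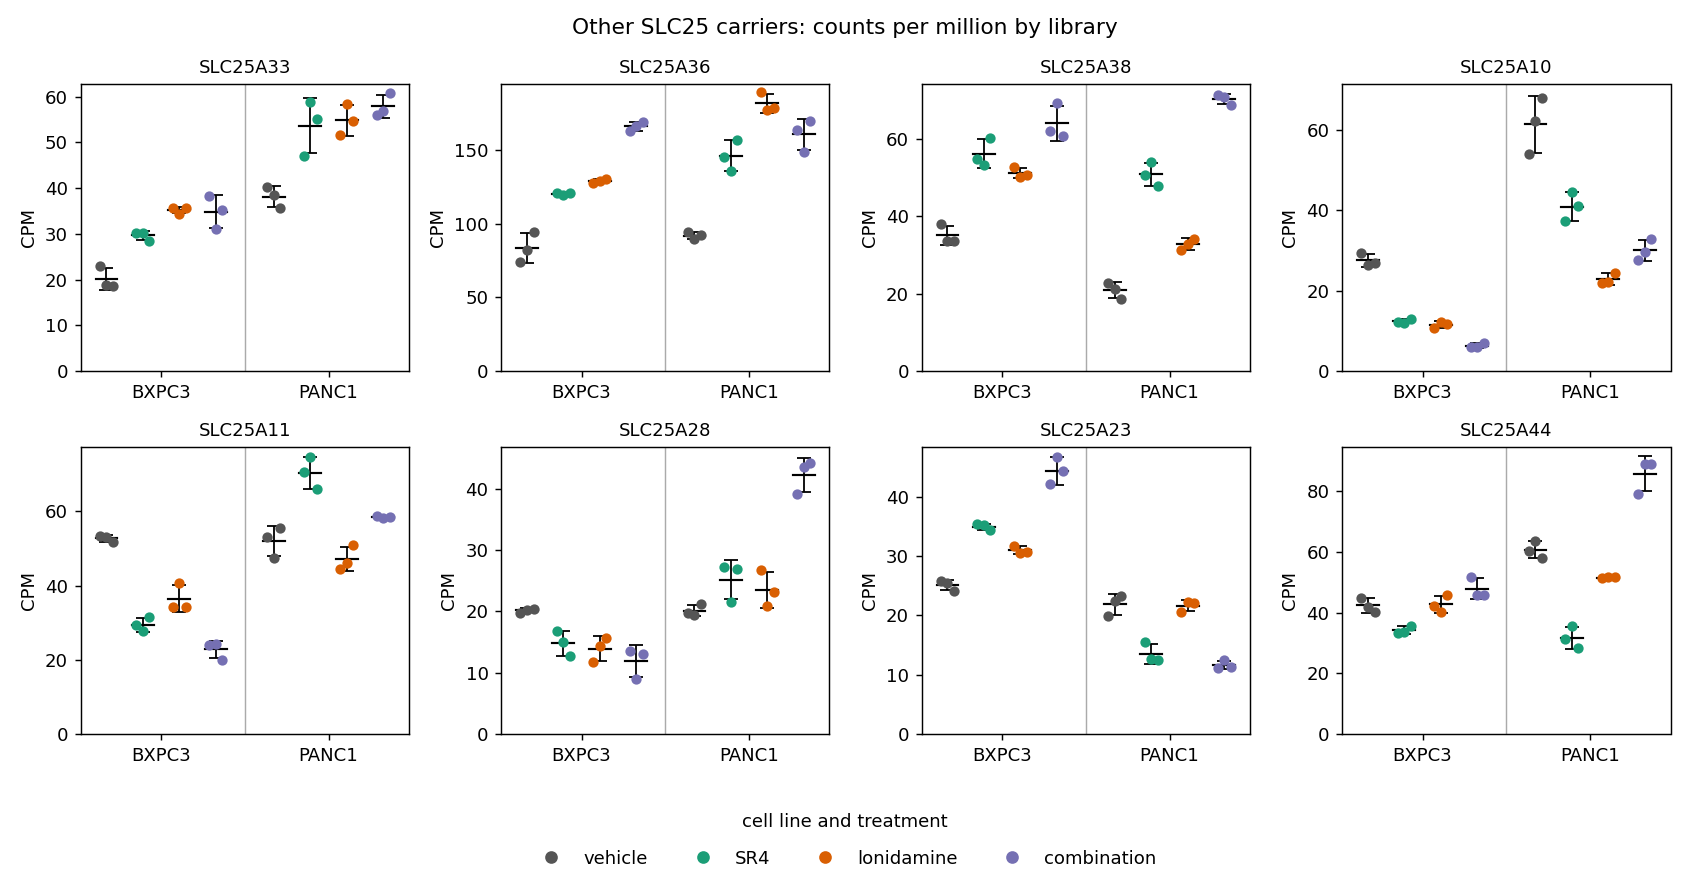
Each point is the CPM of 1 library for 8 further carriers, by line and treatment, with the mean and SD of 3 libraries as bars. All axes start at 0. SLC25A33, SLC25A36 and SLC25A38 stand above vehicle in each treated group, SLC25A10 below it, and SLC25A11, SLC25A28 and SLC25A23 turn in opposite directions in the 2 lines under SR4 and the combination.

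Among the other cofactor carriers, SLC25A16 and SLC25A42 are linked to coenzyme A, SLC25A26 carries S-adenosylmethionine, SLC25A39 and SLC25A40 glutathione, and SLC25A51 NAD. SLC25A17 is the member that sits in peroxisomes. With the combination, 6 of the 11 tested members of this group were called higher and 4 lower in BXPC3, and 8 higher and 1 lower in PANC1. That is 90.9% called in BXPC3 beside 79.2% of all genes tested (39.7% higher and 39.5% lower), and 81.8% in PANC1 beside 81.1% (40.1% and 40.9%). SLC25A16 in PANC1 rose from 26.3, 23.3 and 22.2 CPM with vehicle to 51.4, 49.7 and 52 with the combination (1.09 ± 0.071 log2). SLC25A26 rose with SR4 in BXPC3 from 10.5, 11.8 and 14.5 to 20.9, 19.1 and 18.6 CPM, while SLC25A17 was lower in all 6 comparisons, between -0.51 and -0.90 log2. SLC25A40 in BXPC3 went from 35.7, 37.6 and 37.6 with vehicle to 18.8, 21.3 and 19.95 with lonidamine and back to 33, 29.8 and 35.6 with the combination. The 6 changes of SLC25A39, its relative, lay between -0.12 and 0.07 log2. SLC25A51 rose with lonidamine in PANC1 by 0.62 ± 0.12 log2, but its reads may be shared with the near copy SLC25A52.

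SLC25A42 lies below the level set for naming members, and was picked after its values were seen. Its PANC1 libraries held 2.44, 1.12 and 1.89 CPM with vehicle, 2.93, 2.77 and 2.48 with SR4, 2.68, 2.18 and 3.04 with lonidamine and 12.8, 12.1 and 12.9 with the combination. The SR4 libraries lay just above every vehicle library, but that change was not called. The combination libraries stood far above all others, 2.78 ± 0.20 log2 above vehicle (edgeR adjusted p = 2.65e-13), the largest rise of a tested member in that comparison. In BXPC3 the same comparison gave 1.25 ± 0.31 log2, from 1.2 to 2.85 CPM.

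The amino acid and carnitine carriers were mixed. SLC25A44, the carrier of branched-chain amino acids, held 60.3, 63.6 and 58 CPM in PANC1 vehicle, 31.2, 35.5 and 28.3 with SR4, 51.4, 51.6 and 51.6 with lonidamine and 79.1, 89.1 and 89.1 with the combination. The SR4 libraries were the lowest and the combination libraries the highest of the 4 groups, with log2 changes of -0.94 ± 0.073 and 0.50 ± 0.062. SLC25A15, the ornithine carrier of the urea cycle, was lowest with the combination in both lines, at 9.77, 10.5 and 6.96 CPM against 15.4, 17.8 and 17.6 with vehicle in BXPC3 and 12, 10.7 and 14.6 against 22.6, 24 and 22.9 in PANC1. SLC25A20 exchanges carnitine for acylcarnitine and so admits fatty acids for oxidation. It rose with the combination in PANC1, from 16.9, 16.6 and 16.1 to 29.3, 31.8 and 26.6 CPM, and gave -0.10 ± 0.15 log2 in BXPC3 without passing the test. SLC25A29, a carrier of basic amino acids, fell in PANC1, with changes of -0.80 ± 0.15, -0.78 ± 0.14 and -0.82 ± 0.14 log2 for SR4, lonidamine and both together. Its BXPC3 values were 0.34 ± 0.15 with SR4 and 0.47 ± 0.15 with the combination, and these 2 calls were lost under DESeq2, the first also without vehicle replicate 1 or 3 or SR4 replicate 1 and under DESeq2's size factors, the second also without combination replicate 3.

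SLC25A28 and SLC25A37, the mitoferrins, bring iron into mitochondria. SLC25A28 in BXPC3 held 19.8, 20.3 and 20.4 CPM with vehicle and 13.6, 8.91 and 13.1 with the combination, and in PANC1 19.7, 19.5 and 21.2 with vehicle and 39.1, 43.6 and 44.2 with the combination. The libraries fell in BXPC3 (-0.76 ± 0.13 log2) and rose in PANC1 (1.07 ± 0.094), a difference of 1.79 ± 0.16 (edgeR adjusted p = 3.54e-12). SLC25A37, the form typical of red cell precursors, rose in BXPC3 from 77.5, 87.8 and 87.7 CPM with vehicle to 158, 134 and 138 with SR4 and 131, 145 and 137 with the combination, whereas lonidamine gave 0.07 ± 0.068 log2 and was not called. In PANC1 none of its 3 changes passed the test, with log2 values of 0.07, 0.02 and -0.14.

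Of the relatives of the uncoupling proteins, SLC25A30 changed with every treatment in PANC1. Its libraries there held 27.7, 29.1 and 29 CPM with vehicle, 13.9, 17.1 and 15.8 with SR4, 25.9, 20.3 and 20.6 with lonidamine and 9.37, 8.6 and 12.8 with the combination. In BXPC3 it was higher with lonidamine (49, 44.9 and 45.7 CPM against 34.2, 34.4 and 34.4), and the lonidamine responses of the lines differed by -0.77 ± 0.12 log2 (edgeR adjusted p = 2.12e-06). Its call with SR4 in BXPC3, -0.16 log2, was lost in 9 of 11 alternatives, among them DESeq2 and leaving out any vehicle library, SR4 replicate 2 or the unnumbered SR4 replicate. SLC25A14 fell with SR4 in PANC1, from 22.1, 19.9 and 15.5 to 11.7, 11.2 and 9.09 CPM, and with the combination it stood at 20.6, 15.2 and 19.6. Among members whose solute is less settled, SLC25A35 in PANC1 went from 11.7, 16 and 15.8 CPM with vehicle to 5.52, 4.59 and 4.85 with the combination (-1.53 ± 0.17 log2). SLC25A43 rose with all 3 treatments in BXPC3, by 0.46, 0.47 and 0.57 log2, and in PANC1 it rose with lonidamine, by 0.28, and fell with SR4 and the combination, by 0.22 and 0.43. SLC25A46, an outer membrane protein of mitochondrial dynamics, rose with the combination in both lines (0.50 ± 0.055 and 0.72 ± 0.054).

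The next question was whether the lines differed in their response. Of 39 members tested in the joint fit of 24 libraries, 22 were called for SR4 (10 more positive in PANC1 and 12 more negative), 56.4% beside 51.2% of all genes tested (26.2% and 24.9%). For lonidamine 17 were called (8 and 9), 43.6% beside 41.8% (23.5% and 18.2%), and for the combination 24 (13 and 11), 61.5% beside 61.9% (31.7% and 30.2%). Of the members named here, some were called in opposite directions in the lines with the difference itself called. They numbered 5 with SR4, 2 with lonidamine and 8 with both together. The share of all genes tested that met this rule was not counted, so these numbers do not set the carriers apart. The 8 were SLC25A1, SLC25A23, SLC25A29, SLC25A43 and SLC25A45, higher in BXPC3 and lower in PANC1, and SLC25A11, SLC25A22 and SLC25A28, lower in BXPC3 and higher in PANC1. SLC25A45 was under the level set for naming in BXPC3 and is named after its values were seen. In BXPC3 it held 0.608, 0.931 and 0.71 CPM with vehicle and 3.84, 3.56 and 4.15 with the combination. The PANC1 values were 5.09, 4.48 and 5.88 with vehicle and 2.37, 3.32 and 3.36 with the combination. Its BXPC3 vehicle libraries had 7, 10 and 8 counts, so it passed the filter in that line through its treated groups, where it was high. Its place among the 8 rests on that. The rise of SLC25A11 with the combination in PANC1, 0.16 ± 0.065 log2, was not called without vehicle replicate 2 (edgeR adjusted p = 0.167).

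**Figure D4:**
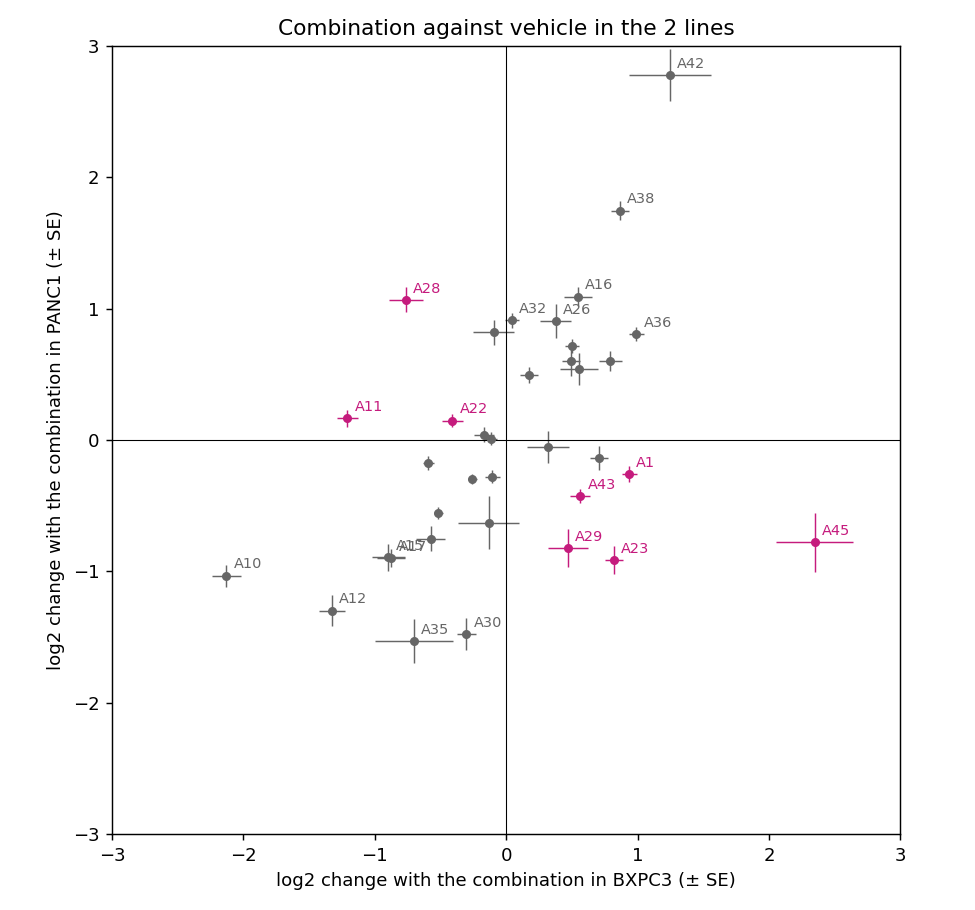
The log2 change with the combination against vehicle in BXPC3 (x axis) is plotted against that in PANC1 (y axis) for each SLC25 member tested and reported in both lines, with SE bars from edgeR. Magenta marks the 8 members called in opposite directions with the difference called, from SLC25A45 at the lower right to SLC25A28 at the upper left. Names are shortened (A45 stands for SLC25A45).

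With vehicle alone, 33 of 39 members differed between the lines, 20 higher and 13 lower in PANC1, 84.6% beside 84.3% of all genes tested (41.3% and 43%). Among members with a mean log2 CPM of 2 or more, those with the largest excess in PANC1 were SLC25A35 (2.51 ± 0.19 log2), SLC25A22 (1.36 ± 0.063) and SLC25A14 (1.24 ± 0.15). Those with the largest excess in BXPC3, at the same level limit, were SLC25A25 (-1.61 ± 0.092), SLC25A24 (-1.41 ± 0.047) and SLC25A37 (-1.37 ± 0.083). Below that limit, SLC25A45 gave 2.67 ± 0.29 and SLC25A27 -3.23 ± 1.25, both called. For SLC25A27 the vehicle libraries had only 4, 7 and 3 counts in BXPC3 and 0, 1 and 0 in PANC1. It entered the joint fit through treated BXPC3 libraries, so the size of that difference is uncertain. SLC25A1 was higher in PANC1 by 0.80 ± 0.063 log2 and SLC25A5 lower by 0.44.

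The combination was then set against each treatment alone. In BXPC3, 23 of 38 members differed between the combination and SR4 (15 higher and 8 lower), 60.5% beside 60.8% of all genes (30.3% and 30.5%), and 26 between the combination and lonidamine (14 and 12), 68.4% beside 60.8% (30.1% and 30.7%). In PANC1 these numbers were 30 (17 and 13), 78.9% beside 66.5% (33.2% and 33.4%), and 28 (16 and 12), 73.7% beside 74.6% (37.1% and 37.5%). SLC25A1 in BXPC3 was above both, by 1.09 ± 0.059 log2 over SR4 and 0.89 ± 0.058 over lonidamine. SLC25A32 in PANC1 was above both as well, by 0.79 ± 0.054 and 0.95 ± 0.053. SLC25A12 in BXPC3 was below both, at -1.0 ± 0.10 and -0.91 ± 0.10.

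The interaction term asks whether the combination's log2 change departs from the sum of the changes with SR4 and with lonidamine. It was called for 18 of 38 members in BXPC3 (10 positive and 8 negative), 47.4% beside 49.2% of all genes (23.7% and 25.5%), and for 23 of 38 in PANC1 (17 positive and 6 negative), 60.5% beside 60.9% (30.8% and 30%). In BXPC3 the largest positive terms were those of SLC25A40 (1.26 ± 0.11 log2), SLC25A1 (1.04 ± 0.085) and SLC25A5 (0.63 ± 0.046). For SLC25A5 the changes behind the term were -0.64 and -0.50 with each treatment alone and -0.52 with both. The most negative were SLC25A26 (-0.82 ± 0.16), SLC25A15 (-0.65 ± 0.17) and SLC25A12 (-0.58 ± 0.13). In PANC1 the largest positive terms at a mean log2 CPM of 2 or more were those of SLC25A44 (1.67 ± 0.095), SLC25A10 (0.97 ± 0.12) and SLC25A32 (0.82 ± 0.081), and the most negative those of SLC25A53 (-1.26 ± 0.26), SLC25A36 (-0.84 ± 0.073) and SLC25A45 (-0.84 ± 0.30). SLC25A42, below that level, had a term of 1.68 ± 0.33. The term of SLC25A45 was not called without PANC1 lonidamine replicate 2 or combination replicate 1 (edgeR adjusted p up to 0.0635). The glutamate carriers SLC25A12, SLC25A13 and SLC25A22 all had positive terms in PANC1, 0.49, 0.54 and 0.75. In BXPC3 their terms were -0.58, 0.54 and -0.03, the last not called. With the combination in PANC1, SLC25A12 and SLC25A13 still lay below vehicle, at -1.3 and -0.28 log2.

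**Figure D5:**
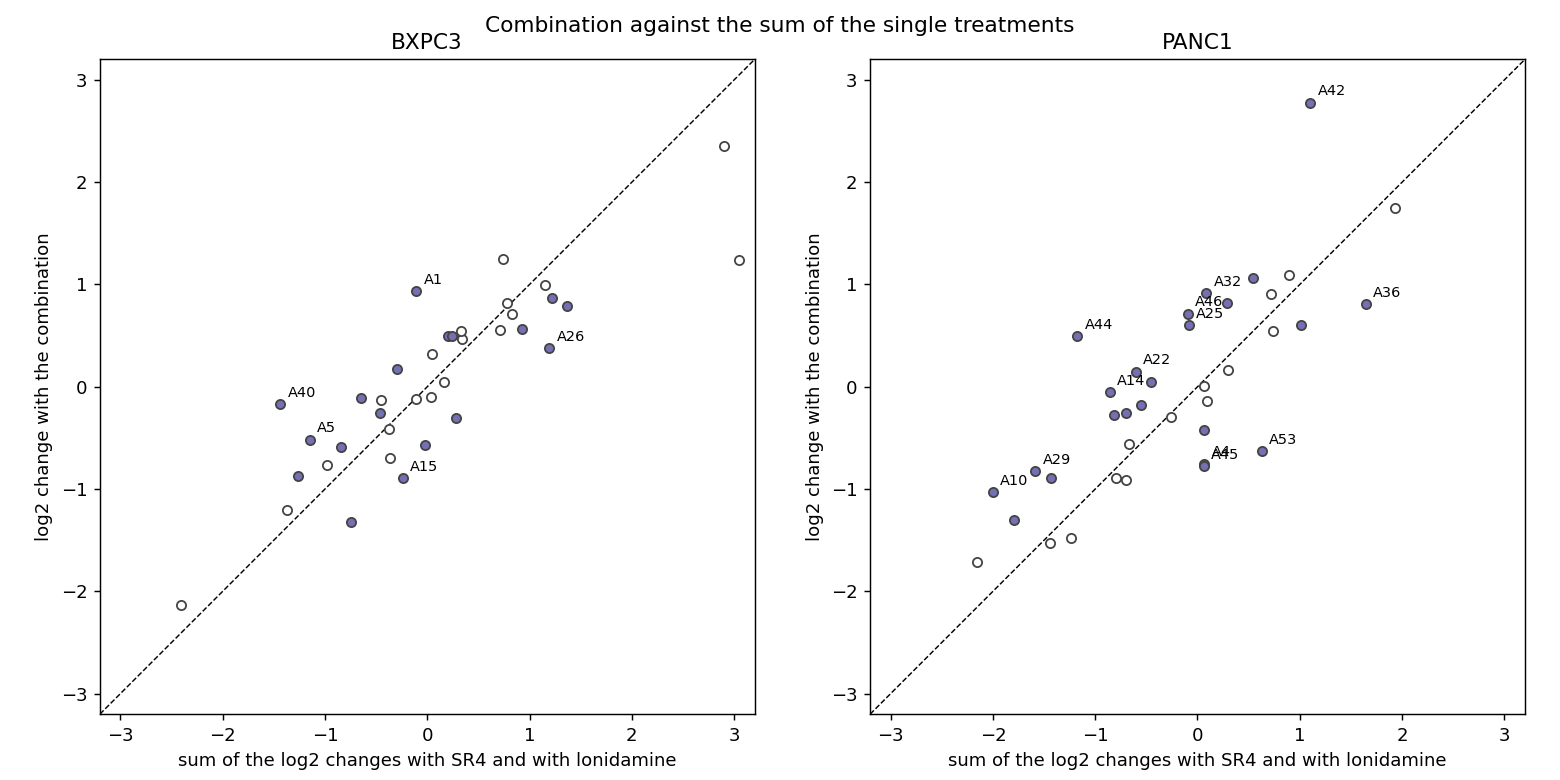
For each SLC25 member tested and reported, the sum of the log2 changes with SR4 and with lonidamine (x axis) is plotted against the log2 change with the combination (y axis), in BXPC3 on the left and PANC1 on the right. The dashed line marks equality and filled points have a called interaction term (edgeR adjusted p under 0.05). SLC25A1 and SLC25A40 lie above the line in BXPC3, and SLC25A44, SLC25A32 and SLC25A42 in PANC1.

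Other genes of mitochondrial membrane transport and the enzymes that use the carried substrates were taken from 2 lists. Of 25 other transport genes tested in BXPC3 (voltage-dependent channels, pyruvate and calcium carriers, sideroflexins and others), 3 were called higher and 16 lower with SR4, 3 and 15 with lonidamine, and 4 and 17 with the combination. Of 24 tested in PANC1, 4 and 12, 5 and 13, and 3 and 16 were called. The shares called were 76%, 72% and 84% in BXPC3, beside 67.2%, 67.5% and 79.2% of all genes tested, and 66.7%, 75% and 79.2% in PANC1, beside 71.7%, 69.2% and 81.1%. Of all genes tested in BXPC3, 33.4%, 34.8% and 39.7% were higher and 33.9%, 32.7% and 39.5% lower. In PANC1 35%, 35% and 40.1% were higher and 36.7%, 34.2% and 40.9% lower. The median log2 change of the listed transport genes lay between -0.32 and -0.14 in these 6 comparisons. The medians over all genes lay between -0.02 and 0.03. Of 20 enzyme genes, 6 were higher and 12 lower with SR4, 7 and 9 with lonidamine and 9 and 10 with the combination in BXPC3, and 7 and 11, 7 and 10, and 8 and 11 in PANC1. Against the same backgrounds these were 90%, 80% and 95% called in BXPC3 and 90%, 85% and 95% in PANC1. In BXPC3 the 3 enzymes with the smallest edgeR adjusted p in each comparison were ALDH1L2, MTHFD2 and SHMT2. All 3 act on folates in mitochondria, the compartment that SLC25A32 supplies. ALDH1L2 had few reads with vehicle in either line. Its BXPC3 means were 1.4 CPM with vehicle, 49.5 with SR4, 55.2 with lonidamine and 42.5 with the combination. In the same order its PANC1 means were 2.23, 30.8, 49.1 and 75.6 CPM. MTHFD2, which oxidizes methylene-folate, rose by 1.02 ± 0.036, 1.5 ± 0.035 and 1.28 ± 0.036 log2 in BXPC3 and by 1.04 ± 0.036, 1.14 ± 0.036 and 0.76 ± 0.036 in PANC1. SHMT2, which makes glycine from serine, rose by 1.38 ± 0.034, 1.34 ± 0.034 and 1.54 ± 0.034 in BXPC3 and by 0.40 ± 0.050, 0.15 ± 0.050 and 0.27 ± 0.050 in PANC1. SLC25A32 itself was called in only 2 of these 6 comparisons. GOT1, the cytosolic aspartate transaminase of the malate-aspartate shuttle, rose in PANC1 by 1.87 ± 0.038, 1.89 ± 0.037 and 2.24 ± 0.037 log2, in the same libraries in which SLC25A12 fell. In BXPC3 it rose with the combination alone (0.37 ± 0.043). PYCR1, which makes proline in mitochondria, rose by 1.6, 1.36 and 1.55 in PANC1. It was higher in BXPC3 as well, with means of 37.3 CPM with vehicle, 94.5 with SR4, 102 with lonidamine and 69.6 with the combination.

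Libraries held 9142433 to 11470973 counts in BXPC3 and 8873041 to 11822495 in PANC1. SMAD4, known to be deleted in BXPC3, was at 0 in its 12 libraries and at 51.4 ± 1.89 CPM (SD, n = 3) in PANC1 vehicle. All 6 ductal epithelial markers were read in every group. Their summed level was 6010 to 6520 CPM in BXPC3 vehicle and 3520 to 3560 with the combination, and 3640 to 3810 and 842 to 886 in PANC1. EPCAM, one of the 6, went against the sum in BXPC3, at 213 ± 9.57 CPM with vehicle and 290.4 ± 10.9 with the combination (SD, n = 3). In PANC1 vehicle the sum was nearly all KRT8, KRT18 and KRT19, with KRT7 at 7.55, CDH1 at 17.5 and EPCAM at 29 CPM. The 3 mesenchymal markers, mostly VIM, summed to 4380 to 4480 CPM in PANC1 vehicle and 75.8 to 83.7 in BXPC3 vehicle. Of 5 immune markers, the summed level went from 21 to 23.4 up to 36.6 to 40.9 CPM in BXPC3 and from 120 to 128 up to 208 to 216 in PANC1, nearly all of it CD68, while PTPRC, the defining marker, stayed under 0.1 CPM on average in the vehicle and combination groups. The part of these marker changes in the carrier results was not tested.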

How the data were processed

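The authors deposited 1 table of gene counts per line, 25168 genes by 12 libraries, with gene coordinates, printed as deposited, and a gene length in kilobases. The submitters' processing notes name the builds GRCh38 and hg38 and the tools DESeq2, STAR 2.7.8a and Partek, without roles. The counting tool, annotation and strandedness were not given in the sources used here. Per the labels' protocols, RNA was taken with RNeasy and libraries with the KAPA mRNA Hyper Prep kit. In BXPC3, 1 SR4 column carries another number than its sample's title and was used as an unnumbered replicate.

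Counts as deposited were scaled by TMM and kept by filterByExpr (minimum count 10) in edgeR 4.0.16, which left 12920 genes in BXPC3, 12514 in PANC1 and 13930 in the joint fit of both lines. The quasi-likelihood test used the 4 groups of a line, or all 8 groups for differences between lines, with Benjamini-Hochberg adjustment at 0.05. The SE is the log2 change over the square root of F. Levels per length are CPM over the deposited length. The script was tested on simulated data. The named members are the ADP/ATP, phosphate, glutamate, citrate and folate carriers, the 4 largest rises and falls in each comparison with vehicle and the 3 largest in each other comparison, among calls whose mean log2 CPM was 2 or more, and per comparison with vehicle the 3 genes of the other 2 lists with the smallest adjusted p. One member is counted in the totals but not reported here by name or in the plots of members. Members and lists were chosen with earlier results of these data known. Promoters came from RefSeq, GRCh38.p14. Alternatives were DESeq2 1.42.0, its size factors, no filter, a replicate block, fits of only the groups compared and leaving out each library.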

Additional observations from a re-analysis of the deposited data

Results flagged for a closer look

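By the test of the difference in the joint fit, the responses of the lines differed for 22 of 39 members with SR4, 17 with lonidamine and 24 with the combination. These are 56.4%, 43.6% and 61.5%, near the 51.2%, 41.8% and 61.9% of all genes tested. The members named here and called in opposite directions in the lines gave the differences below in log2 change, PANC1 minus BXPC3. How often genes outside the family were called in opposite directions was not counted. For SR4 they were 1.27 for SLC25A11, -1.17 for SLC25A23, 0.77 for SLC25A28, -1.14 for SLC25A29 and -0.68 for SLC25A43. For lonidamine they were -0.56 for SLC25A25 and -0.77 for SLC25A30. For the combination they were -1.23 for SLC25A1, 1.33 for SLC25A11, 0.52 for SLC25A22, -1.77 for SLC25A23, 1.79 for SLC25A28, -1.33 for SLC25A29, -1.03 for SLC25A43 and -3.17 for SLC25A45. The last of these rests on few vehicle reads in BXPC3, where SLC25A45 passed the filter through its treated groups. Groups of 3 libraries were too small for a test of outlying libraries.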

How the results depend on the processing

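The number of members called stayed within 1.5 times its value in all 16 comparisons and all alternatives run, for example between 22 and 28 for SR4 in BXPC3 and between 33 and 35 for the combination in PANC1. Of 211 calls of named members, 186 were kept in every alternative, 25 were lost in at least 1 and 0 changed sign. Of 34 other named values that missed the test, 16 changed sign and 7 passed in at least 1 alternative. Leaving out 1 library changed the sign of 4 carrier values near 0. The ranges over libraries left out were -0.034 to 0.11 for SLC25A1 with lonidamine in BXPC3, -0.0013 to 0.072 for SLC25A32 with the combination in BXPC3, -0.10 to 0.0086 for SLC25A32 with lonidamine in PANC1 and -0.12 to 0.0070 for SLC25A5 with SR4 in PANC1. The cause was not tested. The replicate numbers did not pair the libraries: same-numbered libraries of different groups deviated together with a correlation over 0.1 in 1 of 15 pairs in BXPC3 and 3 of 18 in PANC1. With the replicate number as a block the number of members called was 23 in place of 27 for SR4 in BXPC3 and 28 in place of 28 for SR4 in PANC1, and 2 of 11 numbered libraries in BXPC3 and 3 of 12 in PANC1 correlated best with a library of their own number. The block ended 3 calls of named members, all for SR4 in BXPC3: SLC25A22, SLC25A28 and SLC25A30, with edgeR adjusted p-values of 0.0856, 0.0718 and 0.0845. Carriers that missed the count filter in a line could not be tested there at this depth.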

Other observations

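Members with few reads in a line entered no comparison within it, except where the count filter kept them. SLC25A18, the second glutamate and proton carrier, was at 0.636, 1.01 and 0.777 CPM in the PANC1 vehicle libraries and at 0, 0.293 and 0 in the combination libraries, and all 12 BXPC3 libraries were at 0. SLC25A21 held 84 counts over the BXPC3 libraries, where it was not tested, and 83 over the PANC1 libraries. SLC25A27 held 117 counts over the BXPC3 libraries and 7 over the PANC1 libraries. In BXPC3 lonidamine it ranged over 0.399, 0.971 and 2.88 CPM, so its call there (1.72 ± 0.57 log2) rests on libraries that differ widely. SLC25A34 held 57 and 24 counts, SLC25A52 12 and 1, SLC25A41 0 and 7, SLC25A48 5 and 0, SLC25A47 4 and 1 and SLC25A2 1 and 3 in BXPC3 and PANC1.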
